A study of Mus musculus with 8 samples.

Results

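The molecular chaperones of the mouse retina were followed through 14 days of hyperoxia. They were taken as every gene whose symbol begins with Hspa, Hsp90, Dnaja, Dnajb, Dnajc or Cct and a number, together with *Hsph1*, *Hspd1* and *Hspe1*, and were chosen by name and not by any measured value. This gave 71 of the 18193 genes measured on the Affymetrix mouse genome array, read by 181 of the 34945 probe sets (groups of short probes) that name a single gene. Retinal RNA of C57BL/6J mice aged 80 to 120 days, raised in 12 h of dim light at 5 lux and 12 h of darkness, was hybridised to 8 arrays: 2 from control mice kept at normal oxygen (day 0), and 2 each from mice held in 75% oxygen for 3, 7 and 14 days. Each time was a pool of retinas of both sexes, and it is unclear from the sources used here if 1 pool or separate pools fed the 2 arrays of a time. The p-values below therefore measure the spread between arrays, which may be technical. In a pooled whole tissue, fewer cells of a type and less RNA per cell cannot be told apart. The deposited values are on a log2 scale and every probe set is centred on its own median over the 8 arrays, so they show differences between arrays and hold no expression level, and neither the presence of retinal markers nor an order of abundance among chaperones could be read. The value of a gene is the mean of its probe sets. *Hsp90ab1*, the constitutive cytosolic HSP90, was not analysed here, because it is named by no single-gene probe set, and *Dnajc19* was left out because its 3 probe sets are also annotated to its pseudogene.

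Chaperones bind unfolded protein chains and let them fold without clumping. HSP70 proteins do so in cycles of ATP hydrolysis, which the J proteins (Dnaja, Dnajb and Dnajc) start and the HSP110 proteins help to end by exchanging the nucleotide; HSP90 acts later on nearly folded clients, and the ring-shaped chaperonins, TRiC/CCT in the cytosol and HSP60 with its lid HSP10 in mitochondria, enclose a chain while it folds. Heat shock factor 1 induces many of these genes when proteins unfold in the cytosol, through heat shock elements in their promoters, and a separate response of the endoplasmic reticulum (ER) induces *Hspa5* (BiP) and *Hsp90b1* (GRP94). In the retina, CCT is known for folding actin, tubulin and the transducin beta subunit, and J proteins for the recycling of synaptic vesicles.

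Promoter stretches are given for some of the members through which these responses are usually followed, all of which hold a match. Their values are set side by side later in the text. The sequences are from RefSeq on mouse build GRCm38.p6, 5′ to 3′ on the strand of the gene, with heat shock element matches in capitals (GAANNTTC or TTCNNGAA, 2 inverted units, runs of matches joined). *Hspa1a* and *Hspa1b*, the inducible HSP70 genes, share the stretches at chr17:34972227-34972286 and chr17:34959309-34959368 (minus strand) base for base, and their 300-base windows are identical at 296 positions. *Hsph1* (HSP110) is shown before its start (chr5:149636337-149636396, minus strand) and after it (chr5:149636287-149636316), *Dnaja1* at chr4:40722318-40722377 (plus strand). *Hspe1* (HSP10, chr1:55088043-55088102, plus strand) and *Hspd1* (HSP60, chr1:55088033-55088092, minus strand) are divergent neighbours whose starts lie 216 bases apart, so that 1 run of matches is read from both strands.
Hspa1a: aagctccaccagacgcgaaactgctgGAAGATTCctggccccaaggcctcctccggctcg
Hspa1b: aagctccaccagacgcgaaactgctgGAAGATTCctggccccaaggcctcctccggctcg
Hsph1, before the start: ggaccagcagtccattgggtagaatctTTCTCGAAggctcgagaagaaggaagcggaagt
Hsph1, after the start: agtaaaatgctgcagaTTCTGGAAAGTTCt
Dnaja1: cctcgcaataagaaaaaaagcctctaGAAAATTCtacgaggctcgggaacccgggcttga
Hspe1: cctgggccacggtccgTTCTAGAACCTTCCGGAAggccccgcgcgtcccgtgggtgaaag
Hspd1: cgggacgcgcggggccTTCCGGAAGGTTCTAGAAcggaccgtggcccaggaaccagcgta

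In the promoters of the ER chaperones *Hspa5* (chr2:34772005-34772064, plus strand) and *Hsp90b1* (chr10:86705515-86705674, minus strand), the capitals mark matches to the ER stress element (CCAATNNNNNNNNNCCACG or CGTGGNNNNNNNNNATTGG).
Hspa5: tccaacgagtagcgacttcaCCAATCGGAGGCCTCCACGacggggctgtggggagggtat
Hsp90b1: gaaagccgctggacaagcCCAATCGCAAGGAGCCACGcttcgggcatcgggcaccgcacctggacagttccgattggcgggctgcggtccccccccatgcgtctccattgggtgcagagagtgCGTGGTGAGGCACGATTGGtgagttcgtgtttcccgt

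A promoter window (250 bases before to 50 after the start) was held for 58 of the 71 genes. The 2-unit heat shock element was read in 16 of them (27.6%), among them *Cct2*, *Cct5* and *Cct6a*, against 17% of all genes and 15.1% of 32851 promoters. Neither *Dnajb1* nor *Hsp90aa1*, both heat-inducible, was among the 16, and genes without a window could not be read. A 3-unit element (GAANNTTCNNGAA or TTCNNGAANNTTC, which contains the 2-unit letters) was read in 4 (*Hspd1*, *Hspe1*, *Hsph1* and *Dnajb6*; 6.9%), against 0.662% of all genes and 0.603% of promoters. The ER stress element was read in *Hspa5*, *Hsp90b1* and *Dnajc3* (5.17%), against 0.137% of genes and 0.119% of promoters. Both strands were searched, and a match is a run of letters, not a measured binding site. The run shared by *Hspd1* and *Hspe1* counts for both genes in the heat shock element shares. The identical stretch of *Hspa1a* and *Hspa1b* likewise counts for both in the 2-unit share.

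Replicate 2 of day 3 and replicate 2 of day 14, so named by their labels, stood apart from the other arrays and are called the 2 outlying arrays below. *Gapdh*, a glycolytic enzyme, had a 3′ minus 5′ difference of 1.19 and 1.43 there and of -0.32 to 0.12 elsewhere, and that of beta-actin was 1.0 and 1.24 against -0.94 to 0.44. On the same arrays the median of the reactive glia markers (7 of 8 listed genes measured) was 1.97 and 1.71, against -0.58 to 0.33, and that of the microglia and macrophage markers (10 of 10) was 1.44 and 1.42, against -0.27 to 0.31. Lens markers (7 of 7) had medians of 2.31 and 3.67 on the day 7 arrays, 1.75 on control replicate 2, and -2.51 to 0.90 on the others. Cornea marker medians (4 of 4) were 0.61 and 2.11 in control and -1.53 and -1.60 at day 3. At days 7 and 14 they were 0.09 and -0.61, and 1.69 and -0.09. Bipolar cell (6 of 8) and Muller glia (6 of 6) medians were -0.28 and -0.46, and -0.27 and -0.51, at day 3, against 0.04 to 0.36 in control. At day 14 they were -0.14 and -0.52, and -0.03 and -0.68. Rod medians (8 of 10) were -0.36 and -0.37 at day 3, against 0.04 and 0.06 in control, and 0.03 and -0.36 at day 14. Ganglion cell medians (6 of 7) ran the other way at day 3, at 0.31 and 0.21. On day 7 replicate 2 the medians of retinal pigment epithelium (5 of 5) and amacrine cells (6 of 6) were 1.94 and 0.76. On the other arrays they were -0.40 to 0.60 and -0.44 to 0.43. The part of these cells and tissues in the chaperone values was not tested. Gene differences and list medians are followed by their value without the outlying arrays where this turns or moves them by over 1.5 times, unless the value of each array is printed beside them. The 71 chaperone genes were also most alike on the outlying arrays (Pearson r across the genes = 0.85), followed by control replicate 2 and day 7 replicate 2 (r = 0.73). Over all genes the same pairs were the most alike (r = 0.69 and 0.48), so that this was not particular to the chaperones. Of the 71 genes, 16 had their 2 lowest values on the outlying arrays (22.5%, against 9.01% of all genes), and 8 had their 2 highest values there (11.3%, against 19.5%). No test was made of this split, which was chosen after the values were seen. The paper's quality table gives raised *Gapdh* ratios between the 2 ends on both day 14 arrays and lower ones on both day 3 arrays. It also lists *Gfap*, a reactive glia marker, as changed by under 2-fold at day 3 on its arrays. The deposited labels differ from this. They were used as they stand, and their match to the paper's arrays was not tested.

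The first question was whether any chaperone transcript differed from control at any time. None of the 71 genes passed limma's test at an adjusted p of 0.05 at day 3, day 7 or day 14, and neither did any of the 18193 genes (0% called in each comparison). The lowest adjusted p among chaperones was 0.427 at day 3, 1 at day 7 and 0.588 at day 14. At an unadjusted p of 0.05, limma gave 7 chaperone genes at day 3 (9.86%, against 11% of all genes), 0 at day 7 (against 0.797%) and 6 at day 14 (8.45%, against 8.01%), shares close to or below those of all genes. The 7 at day 3 were *Dnajc15*, *Dnajb7*, *Dnajc5g*, *Dnajc13*, *Dnajc17*, *Dnajc5* and *Cct6b*, and the 6 at day 14 were *Dnajc13*, *Hspa4l*, *Dnajc5b*, *Dnajc15*, *Hsph1* and *Dnajb14*. The comparisons between times gave 0 past the adjusted p as well (0% of all genes in each), with lowest adjusted p-values of 0.285 for day 7 against day 3, 0.983 for day 14 against day 3 and 0.41 for day 14 against day 7, and 10, 4 and 9 genes at the unadjusted p (14.1%, 5.63% and 12.7%, against 14.4%, 3.08% and 11.4% of all genes). For any difference among the 4 times, limma called 0 (0% of all genes), with a lowest adjusted p of 0.541 and 7 genes at the unadjusted p (9.86%, against 8.99%). With the outlying array of day 3 left out, *Dnajc15* and *Dnajc24* passed for day 7 against day 3 (2.82% of the 71, against 2.86% of all genes, so that the share was that of all genes), and with both outlying arrays left out 0 genes passed (lowest adjusted p = 0.0605 over all genes).

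A 2-fold difference (1 or more on the log2 scale) was found for 1 chaperone gene at day 3 (*Dnajc15*, higher; 0.868% of all genes), 0 at day 7 (0.258% of all genes) and 1 at day 14 (*Hspa4l*, lower; 0.682% of all genes). Both day 3 arrays lay above both control arrays for 19 of the 71 genes (26.8%, against 28.2% of all genes) and below them for 13 (18.3%, against 16.1%). At day 7 the counts were 7 above (9.86%, against 12.1%) and 14 below (19.7%, against 13.1%), and at day 14 they were 23 above (32.4%, against 33.5%) and 10 below (14.1%, against 15.2%). The median difference over the 71 genes was 0.02 at day 3, -0.04 at day 7 and 0.05 at day 14, with all genes at 0.06, -0.01 and 0.08. The shares at days 3 and 14 were close to those of all genes, and the share below control at day 7 was larger than that of all genes. With the outlying arrays left out, the counts above and below were 33 and 26 at day 3 (46.5% and 36.6%, against 44.1% and 36.3% of all genes) and 41 and 15 at day 14 (57.7% and 21.1%, against 43.9% and 25.6%), where 1 array in place of 2 had to lie beyond the controls, and the median differences were 0.01 and 0.11 (all genes, 0.03 and 0.05).

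**Figure D1:**
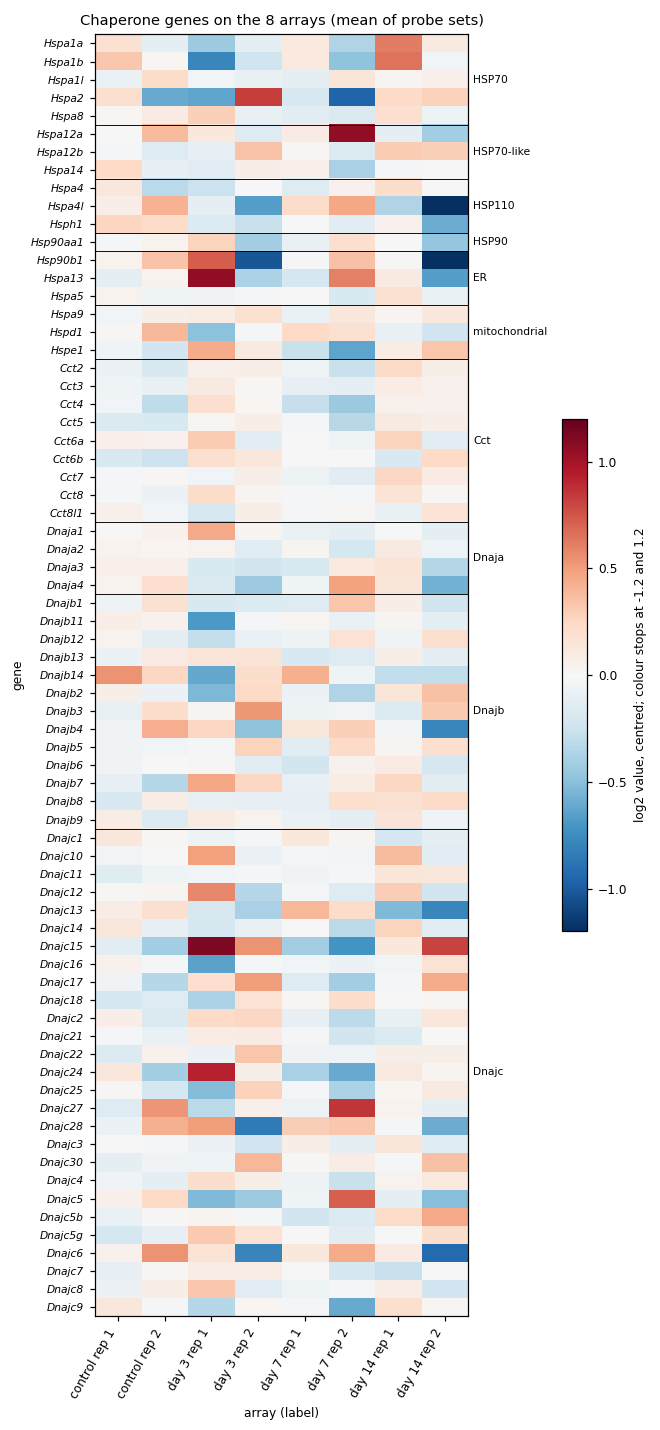
Centred log2 value of each of the 71 chaperone genes (rows, grouped by class) on the 8 arrays (columns, by label); red is above and blue below the median of the 8 arrays, and colour stops at -1.2 and 1.2. Genes blue in the columns of both day 3 replicate 2 and day 14 replicate 2 include *Hsp90b1* (-1.03 and -1.31) and *Dnajc6* (-0.79 and -0.93), and the Cct rows are pale throughout.

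The inducible cytosolic HSP70 genes, which heat shock factor 1 switches on, were lowest at day 3 and highest at day 14 in their group means, and neither passed the test. *Hspa1b* was at 0.32 and 0.02 on the control arrays, -0.79 and -0.24 at day 3, 0.11 and -0.49 at day 7, then 0.65 and -0.04 at day 14. Both day 3 arrays were below both control arrays, and the other times overlapped control. The difference was -0.68 ± 0.31 at day 3 (SE from limma, adjusted p = 0.470), -0.36 ± 0.31 at day 7 (adjusted p = 1) and 0.14 ± 0.31 at day 14 (adjusted p = 0.893). The paper lists *Hspa1b* as lowered at day 3 under its 2-fold rule, on values processed in another way (MAS5) that were not used here. Its day 3 difference of -0.68 on the log2 scale is under 2-fold. *Hspa1a*, its near-identical neighbour on chromosome 17, was at 0.19 and -0.11 in control, -0.44 and -0.11 at day 3, 0.12 and -0.37 at day 7, then 0.62 and 0.11 at day 14, and every time overlapped control. Probes of genes this alike may read both transcripts. Day 14 exceeded day 3 by 0.82 ± 0.31 for *Hspa1b* and by 0.63 ± 0.25 for *Hspa1a* (adjusted p = 0.983 for both). Once the outlying arrays were left out, *Hspa1b* differed from control by -0.96 at day 3 and 0.48 at day 14 and *Hspa1a* by -0.48 and 0.58, so that both genes were below both controls at day 3 and above both at day 14.

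*Hspa8*, the constitutive HSP70 that strips clathrin from vesicles, held within a narrow range: 0.02 and 0.10 in control, 0.28 and -0.09 at day 3, -0.13 and -0.18 at day 7, then 0.20 and -0.06 at day 14. Only at day 7 did both arrays lie to one side of control, by -0.21 ± 0.16. *Hspa2*, an HSP70 best known from the testis, had the widest range of the class, at 0.19 and -0.60 in control, -0.64 and 0.83 at day 3, -0.19 and -0.96 at day 7, then 0.23 and 0.27 at day 14. Its lowest value was on day 7 replicate 2 and its highest on day 3 replicate 2. *Hspa1l*, also known from the testis, had the narrowest range: -0.08 and 0.22 in control, -0.04 and -0.09 at day 3, -0.12 and 0.14 at day 7, then 0.04 and 0.06 at day 14.

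Of the distant HSP70 relatives, *Hspa12a* was at -0.01 and 0.38 in control, 0.12 and -0.16 at day 3, 0.09 and 1.07 at day 7, then -0.12 and -0.41 at day 14, where the 4 probe sets ran from -1.02 to 0.21 in their day 14 difference. A single array, day 7 replicate 2, stood well above the rest. *Hspa12b*, known from endothelial cells, was at -0.03 and -0.16 in control, -0.10 and 0.34 at day 3, 0.03 and -0.17 at day 7, then 0.30 and 0.29 at day 14, so that both day 14 arrays were above both controls, by 0.39 ± 0.17 (adjusted p = 0.627). The endothelial markers (5 of 5 measured) had medians of -0.05 and -0.28 on the day 14 arrays and 0.21 and 0.13 on the control arrays.

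The HSP110 group held the largest negative difference of all chaperones. *Hspa4l* was at 0.08 and 0.41 on the control arrays, -0.11 and -0.66 at day 3, 0.22 and 0.46 at day 7, then -0.36 and -1.19 at day 14. Day 3 and day 14 lay below control without overlap, and day 7 did not. Its difference was -0.63 ± 0.31 at day 3 (adjusted p = 0.477), 0.09 ± 0.31 at day 7 (adjusted p = 1) and -1.03 ± 0.31 at day 14 (adjusted p = 0.613). The remaining arrays gave -0.36 at day 3 and -0.61 at day 14 when the outlying ones were left out, still below both controls. *Hsph1* was at 0.26 and 0.22 in control, -0.17 and -0.27 at day 3, -0.01 and -0.13 at day 7, then 0.05 and -0.59 at day 14, below control at all 3 times, by -0.45 ± 0.21, -0.30 ± 0.21 and -0.51 ± 0.21. *Hsph1* and *Dnajb11* were the genes of the 71 that lay below both controls at day 3, day 7 and day 14. Its day 14 difference was -0.19 without the outlying array. *Hspa4*, the third of the group, overlapped control throughout, at 0.13 and -0.32 in control, -0.25 and 0.00 at day 3, -0.16 and 0.05 at day 7, then 0.21 and 0.00 at day 14. The median of the 3 genes was -0.45 at day 3 and -0.51 at day 14, and -0.19 at day 14 without the outlying array, with 2 of 3 below both controls at each time (66.7%, against 16.1% and 15.2% of all genes).

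Among HSP90 genes, *Hsp90aa1*, the inducible cytosolic form, overlapped control at every time, with -0.02 and 0.05 in control, 0.26 and -0.41 at day 3, -0.09 and 0.19 at day 7, then 0.00 and -0.47 at day 14. Its low values were those of the outlying arrays. *Hsp90b1*, the ER form, was at 0.04 and 0.34 in control, 0.73 and -1.03 at day 3, -0.02 and 0.35 at day 7, then 0.01 and -1.31 at day 14. The day 14 difference of -0.84 ± 0.61 (adjusted p = 0.686) came to -0.18 without the outlying array, and the day 3 difference of -0.34 ± 0.61 turned to 0.54.

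*Hspa5*, the ER HSP70 whose promoter carries the same element, stayed within 0.05 and -0.05 in control, -0.04 and -0.02 at day 3, 0.00 and -0.18 at day 7, then 0.18 and -0.08 at day 14, with differences of -0.03, -0.09 and 0.05 and an SE of 0.14. Its 3 probe sets ran from -0.52 to 0.66 in their day 3 difference. In their gene means the ER chaperones showed no shared direction on these arrays. The third ER member, *Hspa13*, ran from -0.66 to 1.07 over the 8 arrays, the highest being day 3 replicate 1. Of the J proteins that serve *Hspa5*, *Dnajb9* varied least in its class, at 0.09 and -0.17 in control, 0.09 and 0.04 at day 3, -0.08 and -0.12 at day 7, then 0.15 and -0.04 at day 14. *Dnajb11* was below both controls at all times, by -0.42 ± 0.21 at day 3, -0.09 at day 7 and -0.10 at day 14, where the day 3 value rests on replicate 1 (-0.69, against -0.02 on replicate 2), and the differences were -0.75 at day 3 and -0.03 at day 14 without the outlying arrays.

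In mitochondria, HSP60 and HSP10 work as a barrel and its lid and are divergently transcribed from the shared promoter printed above, and their transcripts lay on opposite sides of control at day 3 and day 14, while at day 7 *Hspd1* differed from control by 0.00. *Hspe1* (HSP10) was at -0.05 and -0.23 in control, 0.45 and 0.10 at day 3, -0.27 and -0.63 at day 7, then 0.09 and 0.34 at day 14. Day 3 and day 14 were above control and day 7 below it, in each case with both arrays, by 0.42 ± 0.19, 0.36 ± 0.19 and -0.31 ± 0.19 (adjusted p = 0.470, 0.638 and 1). Its 2 probe sets moved together, with differences of 0.39 to 0.45 at day 3, -0.35 to -0.26 at day 7 and 0.33 to 0.38 at day 14. *Hspd1* (HSP60) was at 0.01 and 0.40 in control, -0.49 and -0.01 at day 3, 0.24 and 0.18 at day 7, then -0.09 and -0.23 at day 14. It was below both controls at day 3 by -0.46 ± 0.20 (adjusted p = 0.460) and at day 14 by -0.36 ± 0.20 (adjusted p = 0.638), and overlapped them at day 7. *Hspd1* is read by a single probe set, and no test was made of the difference between the genes. Leaving out the outlying arrays gave differences of 0.59 and 0.23 for *Hspe1* and -0.69 and -0.30 for *Hspd1*, with the same signs. *Hspa9* (mortalin), the mitochondrial HSP70, was steadier in its gene mean, at -0.04 and 0.07 in control, 0.09 and 0.18 at day 3, -0.08 and 0.14 at day 7, then 0.04 and 0.13 at day 14. Its 5 probe sets ran from -0.22 to 0.55 in their day 7 difference.

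**Figure D2:**
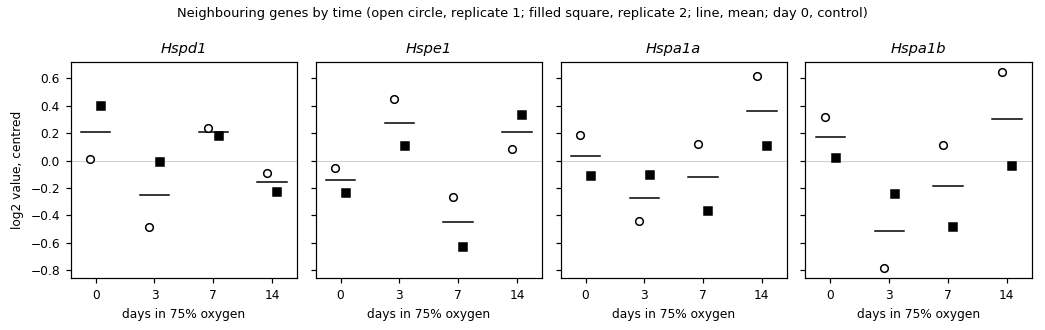
Centred log2 values of *Hspd1* and *Hspe1*, which share a divergent promoter, and of *Hspa1a* and *Hspa1b* by day (open circles, replicate 1; filled squares, replicate 2; lines, means of 2 arrays). *Hspe1* lies above control at days 3 and 14 and *Hspd1* below it (differences of 0.42 and 0.36 against -0.46 and -0.36), whereas the HSP70 pair moves together.

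The genes of the cytosolic chaperonin had small differences, nearly all of one sign, at day 3 and day 14. Of the 9 measured genes named Cct, which leave out *Tcp1* (given further on), both arrays were above both controls for 6 at day 3 (66.7%, against 28.2% of all genes). At day 14 this held for 7 (77.8%, against 33.5%), and none was below at either time. At day 7, 2 were above and 3 below (22.2% and 33.3%, against 12.1% and 13.1% of all genes). Without *Cct6b* and *Cct8l1*, 5 of 7 were above at day 3 and 6 of 7 at day 14, with none below. None of the 9 passed limma's test. The median difference of the 9 was 0.17 at day 3, -0.04 at day 7 and 0.18 at day 14. All 9 had a higher mean at day 14 and 8 at day 3, as had 11652 and 10770 of all 18193 genes. The largest single difference was 0.38 ± 0.16 (*Cct6b*, day 3). The subunit with the widest range, *Cct4*, was at -0.04 and -0.30 in control, 0.20 and 0.02 at day 3, -0.28 and -0.44 at day 7, then 0.05 and 0.05 at day 14. Its day 3 and day 14 arrays all lay above both controls, by 0.28 ± 0.15 and 0.22 ± 0.15, and its 7 probe sets ran from -0.54 to 0.52 in their day 14 difference. *Cct3*, with the narrowest range, gave the same order on a smaller scale, at -0.05 and -0.09 in control, 0.11 and 0.02 at day 3, -0.10 and -0.11 at day 7, then 0.09 and 0.05 at day 14 (0.14 ± 0.11 at both day 3 and day 14).

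*Cct2* (0.19 and 0.27 at days 3 and 14), *Cct5* (0.22 and 0.27) and *Cct8* (0.17 and 0.14, and 0.27 and 0.21 without the outlying arrays) were above both controls at both times, and *Cct7* at day 14 (0.18). *Cct6a* did not follow: replicate 1 of day 3 and of day 14 stood at 0.30 and 0.27 and replicate 2 of both at -0.13, around control values of 0.06 and 0.06. *Cct6b*, the form of this subunit best known from the testis, was at -0.19 and -0.25 in control, 0.19 and 0.13 at day 3, 0.00 and 0.00 at day 7, then -0.19 and 0.24 at day 14, where replicate 1 and the higher control agree at the 2 decimals given. On the remaining arrays alone, 7 Cct genes lay above and 2 below both controls at day 3, and 8 above and 1 below at day 14 (77.8% and 22.2%, and 88.9% and 11.1%, against 44.1% and 36.3%, and 43.9% and 25.6%, of all genes). This count was chosen after the values were seen.

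**Figure D3:**
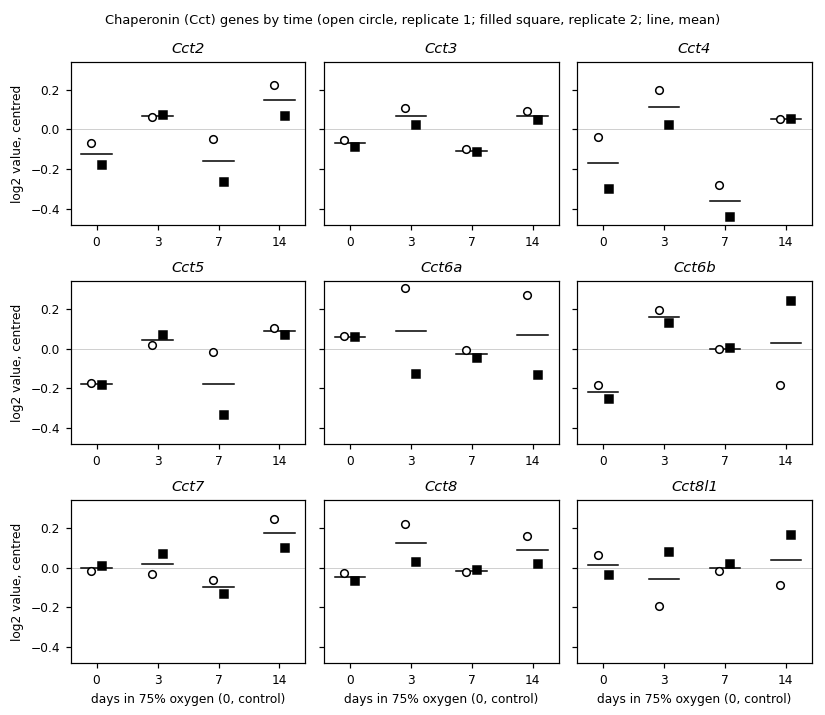
Centred log2 values of the 9 measured Cct genes by days in 75% oxygen (open circles, replicate 1; filled squares, replicate 2; lines, means of 2 arrays; 0, control). The means of days 3 and 14 lie above those of control in 8 and 9 panels, by at most 0.38, and those of day 7 near or below them in most. Of all 18193 genes, 10770 and 11652 had a higher mean at days 3 and 14.

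The J proteins form the largest group, with 44 genes, and held the largest positive difference at day 3 and at day 14. *Dnajc15* (MCJ), a J protein of the inner mitochondrial membrane, was at -0.12 and -0.42 in control, 1.12 and 0.54 at day 3, -0.42 and -0.72 at day 7, then 0.12 and 0.81 at day 14. Day 3 and day 14 lay above control without overlap, by 1.10 ± 0.28 (adjusted p = 0.427) and 0.74 ± 0.28 (adjusted p = 0.617), and day 7 overlapped it, at -0.30 ± 0.28. Leaving out the outlying arrays gave 1.39 and 0.39. It had the widest range of its class over the 8 arrays and is read by 1 probe set. Day 7 lay below day 3 by -1.40 ± 0.28, with the lowest unadjusted p of the chaperones in that comparison (0.00162 by limma, adjusted p = 0.285).

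*Dnajc13* (RME-8), which sorts cargo on endosomes, gave the smallest p of the 71 for any difference among the 4 times (0.00124 by limma, adjusted p = 0.541). It was at 0.09 and 0.19 in control, -0.19 and -0.39 at day 3, 0.39 and 0.22 at day 7, then -0.53 and -0.78 at day 14. No time overlapped control: day 3 was lower by -0.43 ± 0.15 (adjusted p = 0.427), day 7 higher by 0.16 ± 0.15 (adjusted p = 1) and day 14 lower by -0.80 ± 0.15 (adjusted p = 0.588). Its 2 probe sets gave -0.52 and -1.07 at day 14. The day 14 difference was -0.67 without the outlying array, so that it depended less on that array than that of *Hsp90b1* or *Hspa4l*.

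*Dnajc5* (cysteine string protein), which guards synaptic vesicles, was at 0.06 and 0.24 in control, -0.53 and -0.44 at day 3, -0.05 and 0.71 at day 7, then -0.11 and -0.51 at day 14. It was below both controls at day 3 by -0.63 ± 0.26 (adjusted p = 0.450) and at day 14 by -0.46 ± 0.26 (adjusted p = 0.641), and by -0.26 at day 14 without replicate 2. *Dnajc6* (auxilin), which recruits *Hspa8* to clathrin, overlapped control at both times, with means lower by -0.61 ± 0.42 and -0.71 ± 0.42 that came to -0.13 and -0.20 without the outlying arrays. Of the relatives of cysteine string protein, *Dnajc5g* had both arrays above both controls at day 3 (0.40) and day 14 (0.26, and 0.16 without the outlying array), and *Dnajc5b* at day 14 (0.37 ± 0.13, adjusted p = 0.615).

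*Dnajc17*, linked to RNA splicing, was at -0.04 and -0.34 in control, 0.20 and 0.50 at day 3, -0.15 and -0.42 at day 7, then -0.02 and 0.44 at day 14, above control at day 3 by 0.54 ± 0.21 and at day 14 by 0.40 ± 0.21 (0.17 without the outlying array). Its highest values were those of the 2 outlying arrays. *Dnajc9*, a histone chaperone, was lowest on day 7 replicate 2: 0.14 and -0.02 in control, -0.34 and 0.02 at day 3, -0.02 and -0.60 at day 7, then 0.19 and 0.03 at day 14. *Dnajc18* was at -0.21 and -0.15 in control, -0.38 and 0.18 at day 3, 0.02 and 0.21 at day 7, then 0.01 and 0.03 at day 14, above control at day 7 by 0.30 ± 0.19, though its probe sets ran from -0.38 to 0.84. The steadiest of the 27 Dnajc genes was *Dnajc11*, a mitochondrial J protein, at -0.14 and -0.06 in control, -0.03 and -0.02 at day 3, -0.04 and -0.02 at day 7, then 0.15 and 0.13 at day 14. Its gene mean was above both controls at every time, by 0.07, 0.07 and 0.24 ± 0.11. The differences of its 4 probe sets ran from -0.09 to 0.42 at day 3, -0.10 to 0.44 at day 7 and 0.03 to 0.57 at day 14. As a group, Dnajc had 8 genes above and 4 below both controls at day 3 (29.6% and 14.8%, against 28.2% and 16.1% of all genes) and 10 above and 3 below at day 14 (37.0% and 11.1%, against 33.5% and 15.2% of all genes), and 16 and 6 at day 14 without replicate 2 (59.3% and 22.2%, against 43.9% and 25.6%).

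The Dnaja and Dnajb proteins carry unfolded chains to HSP70. *Dnaja1* was at -0.01 and 0.05 in control, 0.46 and 0.04 at day 3, -0.08 and -0.10 at day 7, then 0.00 and -0.12 at day 14, and *Dnajb1*, the heat-inducible HSP40, at -0.06 and 0.18 in control, -0.19 and -0.16 at day 3, -0.15 and 0.33 at day 7, then 0.07 and -0.23 at day 14. Both day 3 arrays of *Dnajb1* were below both controls (-0.23 ± 0.20), and those of *Dnaja1* overlapped them. *Dnaja2* varied least of its class, with 0.04 and 0.02 in control, 0.04 and -0.13 at day 3, 0.03 and -0.21 at day 7, then 0.11 and -0.05 at day 14. *Dnaja4* had the widest range of its class, at 0.04 and 0.20 in control, -0.17 and -0.44 at day 3, -0.05 and 0.48 at day 7, then 0.15 and -0.56 at day 14. Its extremes were on the outlying array of day 14 and on day 7 replicate 2.

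In the Dnajb class, *Dnajb4* was at -0.05 and 0.43 in control, 0.25 and -0.48 at day 3, 0.14 and 0.29 at day 7, then -0.03 and -0.78 at day 14. *Dnajb7* was at -0.10 and -0.34 in control, 0.46 and 0.25 at day 3, -0.09 and 0.09 at day 7, then 0.25 and -0.13 at day 14, above control at day 3 by 0.58 ± 0.18 (adjusted p = 0.427) and at day 7 by 0.22 ± 0.18. Of the 13 genes, 3 were above and 3 below both controls at day 3 (23.1% each, against 28.2% and 16.1% of all genes) and 3 above and 2 below at day 14 (23.1% and 15.4%, against 33.5% and 15.2%). The larger of those below was *Dnajb14*, of the ER membrane, at -0.69 ± 0.29 (adjusted p = 0.621).

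**Figure D4:**
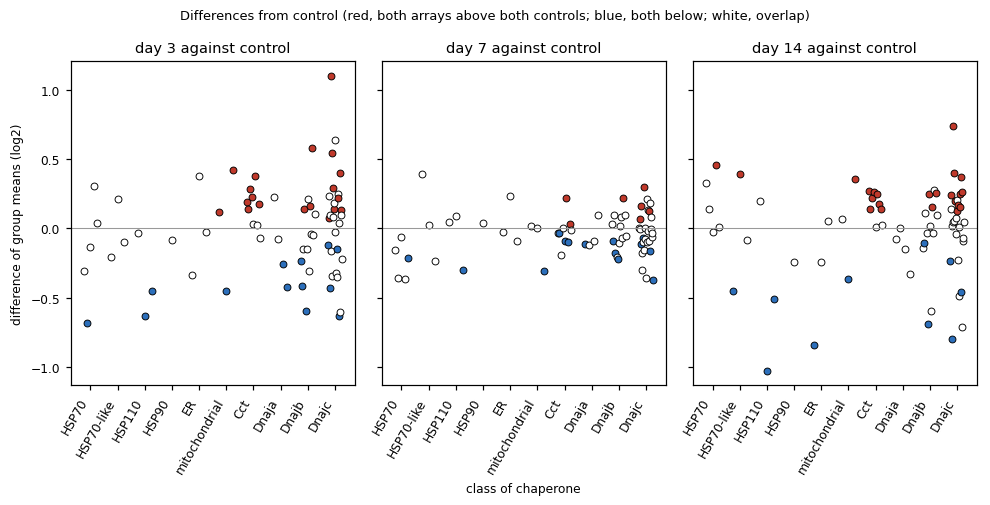
Difference of group means from control (log2) at days 3, 7 and 14 for each of the 71 genes, by class; red points have both arrays above both controls, blue points both below, and white points overlap. Of the 9 Cct points, 6 are red at day 3 and 7 at day 14, HSP110 holds the lowest point at day 14 (-1.03), *Dnajc15* the highest at days 3 and 14 (1.10 and 0.74), and the day 7 points are drawn in towards 0.

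How firmly a gene value stood depended on its probe sets. In 27 of the 47 chaperone genes read by more than 1 probe set, the day 14 differences of the probe sets had both signs. The 5 probe sets of *Hspa4l* were all lower at day 14, by -2.16 to -0.32, whereas those of *Hspa4* ran from -0.03 to 0.56 and those of *Hspa5* from -0.23 to 0.58. For *Hsp90b1* the 2 probe sets gave -0.37 and -1.32, and the second stood at -1.72 and -2.13 on the outlying arrays. The widest range was that of a *Dnajc6* probe set, at -0.08 and 1.14 in control, 0.81 and -2.58 at day 3, -0.30 and 2.04 at day 7, then 0.08 and -2.69 at day 14, while another probe set of *Dnajc6* kept within -0.50 and 0.19. A *Cct3* probe set showed the same contrast, with -0.91 and -1.31 on those arrays, where the other 6 of that gene were at -0.08 to 0.36.

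Of the 181 chaperone probe sets, 39 had their 2 lowest values on the outlying arrays (21.5%, against 9.59% of all 45037), and 28 their 2 highest (15.5%, against 16.0%). The 3′ minus 5′ differences of *Gapdh*, beta-actin and the added poly-A controls were highest on the same arrays, and their part in these probe set values was not tested. Taken singly, 0 of the 181 probe sets passed limma's adjusted p at day 3, day 7 or day 14, and 6 were lower by 2-fold at day 14 (3.31%, against 1.84% of all probe sets).

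**Figure D5:**
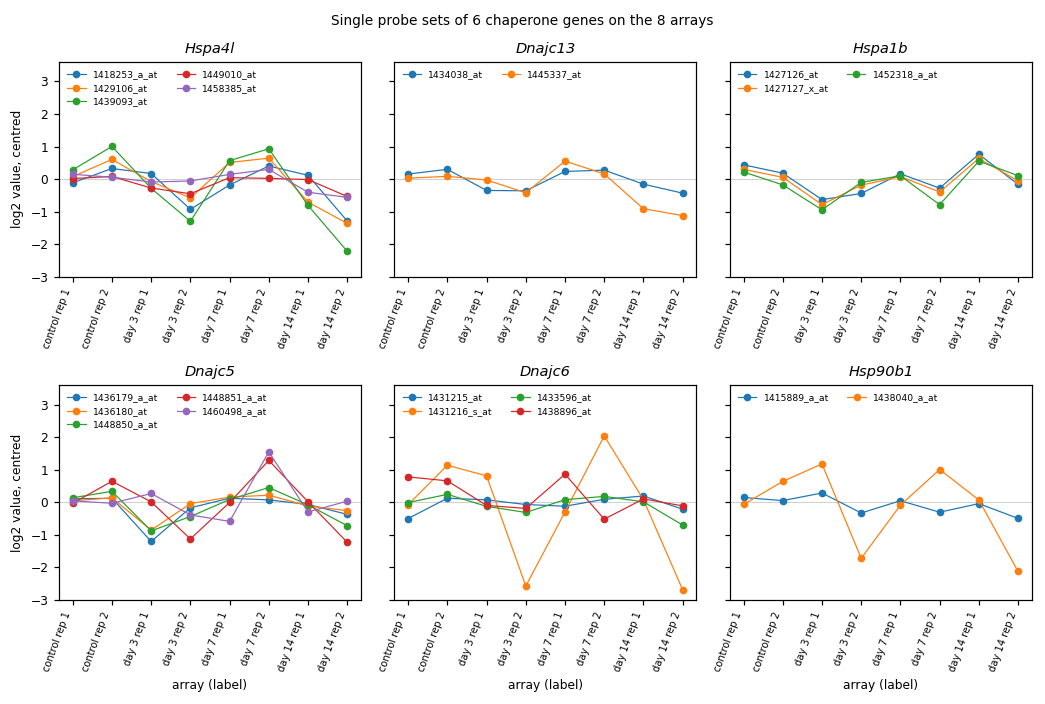
Centred log2 value of each probe set of 6 chaperone genes on the 8 arrays, in the order of the labels (1 line per probe set, lines joining arrays only to guide the eye). The *Hspa1b* lines run together, the *Hspa4l* lines fall on one side at day 14 by different amounts, and in *Dnajc6* and *Hsp90b1* a single probe set reaches -2.69 and -2.13 on replicate 2 of day 14, where the others are at -0.70 to -0.11 and at -0.50.

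Genes that work with these chaperones were read from further lists, none of whose members passed the test. Of the 7 small heat shock proteins, which hold unfolded chains without ATP, 6 had both day 14 arrays above both controls (85.7%, against 33.5% of all genes) and none below, with a median difference of 0.37. Without the outlying array the count was also 6 (against 43.9% of all genes) and the median 0.20. *Hspb1* (HSP27) was at -0.59 and 0.00 in control, -0.77 and -0.16 at day 3, 0.00 and 2.0 at day 7, then 0.08 and 0.15 at day 14. *Cryab* (alphaB-crystallin), which the lens also makes in bulk, was the exception, at -0.83 and 1.26 in control, -0.64 and -0.22 at day 3, 1.43 and 1.46 at day 7, then 0.17 and -0.20 at day 14. The lens markers were high on the same 3 arrays as *Cryab* (2.31 and 3.67 at day 7 and 1.75 on control replicate 2), and their part in its values was not tested.

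Prefoldin hands actin and tubulin chains to the chaperonin. Of 12 prefoldin subunits and chaperonin partners, 5 were above both controls at day 3 (41.7%, against 28.2%) and 6 at day 14 (50%, against 33.5%), with none below at either time, among them *Tcp1*, which encodes the CCT alpha subunit (0.35 at day 3 and 0.26 at day 14, and 0.55 and 0.40 without the outlying arrays). Without replicate 2 of each time these counts were 11 and 10 (91.7% and 83.3%, against 44.1% and 43.9% of all genes). The prefoldin subunit *Pfdn4* was at -0.01 and -0.53 in control, 1.81 and 0.01 at day 3, -0.51 and -0.71 at day 7, then 0.02 and 0.13 at day 14, so that the day 3 difference of 1.18 rests on replicate 1.

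Of 16 other HSP70 cochaperones, 9 were above and 3 below both controls at day 14 (56.2% and 18.8%, against 33.5% and 15.2% of all genes). *Hscb*, the J protein of iron-sulfur cluster assembly, was above at all 3 times (0.35, 0.17 and 0.47), and *St13*, which stabilises HSP70, below at all 3 (-0.20, -0.09 and -0.35). Without the outlying arrays the day 3 difference of *Hscb* was 0.18, and *St13* was lower by -0.11 at day 3 and -0.20 at day 14. Among 12 HSP90 cochaperones, 1 was above and 5 below at day 3 (8.33% and 41.7%, against 28.2% and 16.1% of all genes), and 4 above and 3 below at day 14 (33.3% and 25%, against 33.5% and 15.2%). *Stip1*, which hands clients of HSP70 on to HSP90, was below both controls at days 3 and 14 (-0.35 and -0.34, the second being -0.04 without the outlying array). Of 17 genes of ER folding and stress, 4 were above and 2 below at day 14 (23.5% and 11.8%, against 33.5% and 15.2%), and those below were *Pdia3* (-0.53, and -0.19 without the outlying array), a disulfide isomerase, and *Atf6* (-0.43), a sensor of ER stress. Of 10 genes of mitochondrial protein quality control, 3 were above and 1 below at day 14 (30% and 10%, close to the shares of all genes). Among heat shock factors and proteins that bind them, 2 of 5 measured genes were above at day 14 (*Hsf4* and *Hsf5*, 40%, against 33.5%). None was below (0%, against 15.2%), and *Hsf1* was not analysed here.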

How the data were processed

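Per the submitters' processing notes, the authors made the deposited log2 values with RMA, which subtracts background, equalises the distributions of the arrays and combines the probes of each set into 1 value. The centring of each probe set is not described in the sources used here, and the MAS5 values of the methods were not used. Control probe sets (64) were set aside. Of 45037 probe sets, 932 name several genes and 9160 none in the platform annotation, and the others were averaged by gene. A model of 4 group means was fitted to 18193 genes with limma 3.58.1 (lmFit, eBayes; 4 residual and 3.12 prior degrees of freedom), with Benjamini-Hochberg adjustment over all genes at 0.05. With 2 arrays against 2, an exact permutation test cannot go below a two-sided p of 0.333, and the number of arrays limits the precision. Genes given with all 8 values are 13 reference members, the 3 largest differences in each direction at each time among genes that do not overlap control, the 2 with the smallest F-test p, and the widest and narrowest range in each of 10 classes. The members and lists were chosen with earlier results of these data known, and other genes, probe sets and counts by class after their values were seen. On simulated data for day 14 against control (18193 genes), limma called 35 of 67 genes given a log2 change of 1, 56 of 67 given 2, 59 of 66 given 3, and 10 of 17993 left as they were. The simulated noise was independent between genes and arrays, while the real arrays shared deviations. These counts therefore do not give the power on the real arrays. Alternatives were a further quantile normalization, subtracted array medians, a replicate block, robust eBayes, pairwise fits, single probe sets, the probe set with the largest SD, gene means without probe sets that can share probes between transcripts, and leaving out arrays. Promoters are from RefSeq (GRCm38.p6).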

Additional observations from a re-analysis of the deposited data

How the results depend on the processing

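No chaperone gene passed the adjusted p at day 3, day 7 or day 14 against control under any alternative run. No alternative had more than 2 arrays per time, and those that left out arrays had fewer. The number that passed for day 7 against day 3 ran from 0 to 2 when each array was left out in turn: without day 3 replicate 2, *Dnajc15* (adjusted p = 0.0466 by limma) and *Dnajc24* (adjusted p = 0.0431 by limma), both lower at day 7, passed, among 521 of 18193 genes (2.82% of the chaperone genes, against 2.86% of all genes), on the assumption that the array left at day 3 varies like those of other times. With both outlying arrays (replicate 2 of day 3 and of day 14) left out, 0 genes passed for day 7 against day 3 (lowest adjusted p = 0.0605 by limma). The replicate numbers did not pair the arrays (the deviations of same-numbered arrays correlated at -0.30 to 0.46 across genes), and with the replicate block 0 chaperone genes passed in every comparison.

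Leaving out 1 array at a time, the median difference ran from -0.0152 to 0.024 at day 3, -0.074 to -0.0371 at day 7 and 0.000728 to 0.114 at day 14, the genes above both controls from 19 to 33, 7 to 22 and 23 to 41, and those below from 13 to 28, 14 to 35 and 10 to 31. These counts can only grow when fewer arrays must lie beyond the controls. Without replicate 2 of both day 3 and day 14 the median at day 14 was 0.11, with 41 genes above, and day 3 had 33 above and 26 below. With the probe set of largest SD in place of the mean, the day 14 median was 0.0175, 7 genes were below both controls at day 3, and *Dnajc18* turned to -0.38 at day 7; the cause was not tested.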
